A study of Mus musculus with 4 samples.

Results

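Heat shock proteins and chaperones were followed as 9 genes of mouse lung, out of 23284 genes in the deposited tables. The members were given by name (Hspa1a, Hspa1b, Hspa8, Hspa5, Hsph1, Dnajb1, Hsp90aa1, Hspd1 and Hspe1), and each matched a single gene symbol in both tables. The values are FPKM, fragments scaled by transcript length and by sequencing depth. The set was chosen by name with the levels and differences of these same 4 libraries known, so both are given as a description and carry no test.

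The 4 groups were all of strain C57BL/6 and held 1 library of whole lung each. One table held the lungs exposed to house dust mite (HDM), which provokes allergic airway inflammation, from wild-type mice and from IL22-/- mice that lack the cytokine interleukin-22. These mice were sensitized to HDM and then challenged with it, and RNA was taken 48 h after the last dose. The other table held wild-type mice without allergen, given recombinant IL-22 or PBS (phosphate-buffered saline) into the trachea, with RNA taken after 24 h. Neither the number of animals behind a library nor their age is given in the sources used here, and no library has a replicate. The HDM and PBS groups differ in table, time and handling as well as in allergen, so these cannot be told apart, and levels are set side by side across the tables without a fold. With no spread between replicates, which neighbours in an order of levels truly differ cannot be told. The libraries are called the HDM wild type, the HDM knockout, PBS and IL-22.

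Heat shock proteins are chaperones that bind unfolded proteins and help them fold, move or be degraded. When proteins are damaged by heat, oxidants or fever, the transcription factor HSF1 binds heat shock elements and switches on the inducible members within minutes, while constitutive members are made at all times. Chaperones of the endoplasmic reticulum answer to another pathway, the unfolded protein response, which secretory cells of the airway use heavily. Among the members, Hspa1a and Hspa1b encode the stress-inducible HSP70, Hsph1 the HSP110 that exchanges nucleotides on HSP70, Dnajb1 an HSP40 that delivers clients to HSP70, and Hsp90aa1 the inducible form of cytosolic HSP90. Of the members taken as constitutive, Hspa8 encodes the everyday HSC70, Hspa5 the HSP70 of the endoplasmic reticulum (BiP), and Hspd1 and Hspe1 the mitochondrial chaperonin HSP60 and its lid HSP10. The division is of degree, since Hspa8, Hspd1 and Hspe1 also respond to heat shock.

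The upstream sequences are shown first because the inducible copies share theirs almost letter for letter. Hspa1a (chromosome 17, 34969190 to 34972156, minus strand) and Hspa1b (chromosome 17, 34956436 to 34959238, minus strand) are protein-coding genes of 1 exon in the GENCODE M21 annotation of GRCm38, the assembly called mm10. Their start sites lie 12918 bases apart. The 250 bases before each start, from RefSeq on GRCm38.p6, are printed 5′ to 3′ on the gene's strand, and capitals mark the core of a heat shock element, GAANNTTC.
Hspa1a, chr17:34972157-34972406: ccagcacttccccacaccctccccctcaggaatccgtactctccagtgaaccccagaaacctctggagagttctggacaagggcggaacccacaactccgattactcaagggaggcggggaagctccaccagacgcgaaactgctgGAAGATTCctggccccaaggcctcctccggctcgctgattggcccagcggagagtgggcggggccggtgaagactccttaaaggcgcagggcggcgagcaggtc
Hspa1b, chr17:34959239-34959488: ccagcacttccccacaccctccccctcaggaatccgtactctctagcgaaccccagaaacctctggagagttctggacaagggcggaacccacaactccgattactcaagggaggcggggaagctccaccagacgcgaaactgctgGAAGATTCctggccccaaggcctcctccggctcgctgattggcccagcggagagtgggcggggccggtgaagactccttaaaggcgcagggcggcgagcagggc
The copies differed at 3 of these 250 positions, and each held a single GAANNTTC core, starting 104 bases before the start site. The same core occurred, on either strand, in 6.69% of all 32851 upstream windows of this length. No annotated exon overlapped either stretch.

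The chaperonin genes Hspe1 (chromosome 1, 55088132 to 55091307, plus strand) and Hspd1 (chromosome 1, 55077835 to 55088243, minus strand) face away from each other and overlap at their 5′ ends by 112 bases. The run below lies between the start site of Hspe1 and the more distant of 2 listed starts of Hspd1 and is shown because it holds the longer heat shock element of 3 alternating units, GAANNTTCNNGAA or its reverse complement TTCNNGAANNTTC, in 2 overlapping copies (capitals). For Hspa5 (chromosome 2, 34771970 to 34777547, plus strand) the capitals mark an endoplasmic reticulum stress element, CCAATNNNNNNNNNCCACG, a site through which the unfolded protein response acts. For Hsph1 (chromosome 5, 149614287 to 149636376, minus strand) they mark a core of the other orientation, TTCNNGAA.
Hspe1, chr1:55088053-55088082, plus strand: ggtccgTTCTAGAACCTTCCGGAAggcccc
Hspa5, chr2:34772020-34772049, plus strand: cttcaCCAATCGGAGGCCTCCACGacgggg
Hsph1, chr5:149636351-149636380, minus strand: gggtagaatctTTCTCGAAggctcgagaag
The Hspe1 stretch overlaps an exon of an annotated Hspd1 transcript, and those of Hspa5 and Hsph1 overlap exons of transcripts of the same gene that start further upstream. The element of 3 units was found in 0.466% of all windows, the stress element in 0.113% and TTCNNGAA in 7.17%. TTCNNGAA and GAANNTTC are parts of the longer element, so a window with 3 units also holds both of them. In Hsph1 the element of 3 units lay after the start site, at position 37 counted from the start site of its first window. Neither window of Dnajb1 (chromosome 8, 83608193 to 83612653, plus strand) held a heat shock or stress element. Hspa8 (chromosome 9, 40800984 to 40810087, plus strand) and Hsp90aa1 (chromosome 12, 110690605 to 110702728, minus strand) had no entry in the promoter table. A match is a description of the letters and not a binding site.

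Il22 was at 0.362 FPKM in the HDM wild type and was listed at 0 in the other 3 libraries, so its 0 does not by itself tell the knockout from an unchallenged wild type. Lung markers were present in every library, with the surfactant gene Sftpc at 30749 to 37820 FPKM and the club cell secretoglobin Scgb1a1 at 112693 to 141280. The depth estimated from the whole-read steps of low FPKM values was 24.85 M reads (M, mega) for the HDM wild type, 27.1 M for the HDM knockout, 19.95 M for PBS and 28.75 M for IL-22. Intervals given below for ratios are exact 95% binomial intervals from reads estimated at these depths. They cover counting error only, compare libraries and not genotypes or treatments, and say nothing of the spread between animals. A gene is called lower or higher where log2(FPKM + 1) differs by at least 1 and the mean FPKM of the pair is at least 1.

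In the HDM pair all 9 members were lower in the knockout library than in the wild-type library, and the stress-inducible HSP70 genes stood far from the rest. Hspa1a and Hspa1b were the only members past the size rule, which 2.42% of 13285 measured genes passed in that direction and 0.549% in the other. At a size of 1.5-fold, 5 members were lower (Hsph1, Dnajb1 and Hspa5 besides), as were 6.41% of all measured genes, and 3.23% were higher by as much. These shares are printed as background, and nothing is read from them, since the members were chosen with these differences known. The median difference was -0.89 over the 5 inducible members and -0.55 over the 4 constitutive members, beside 0.03 over all measured genes, of which 46.1% lay below 0. In whole lung, fewer cells of a type and less RNA per cell cannot be told apart.

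**Figure D1:**
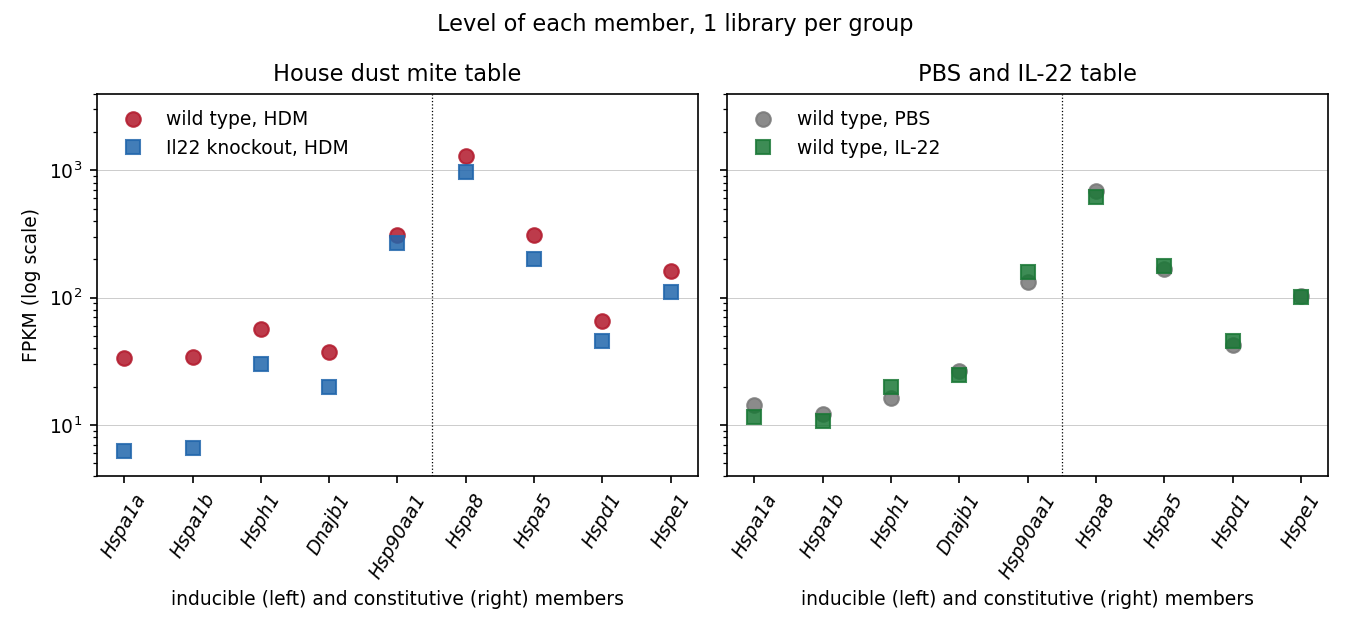
FPKM on a log axis (vertical) of the 9 members (horizontal) in the 4 libraries, with the HDM table on the left and the PBS and IL-22 table on the right; each point is 1 library. The knockout HDM points lie below the wild-type HDM points for every member, most of all for Hspa1a (6.22 against 33.8) and Hspa1b (6.61 against 34.1), while the PBS and IL-22 points nearly coincide.

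Hspa1a was at 33.8 FPKM in the HDM wild type, 6.22 in the HDM knockout, 14.3 with PBS and 11.5 with IL-22. Hspa1b was at 34.1, 6.61, 12.2 and 10.9 in the same order. For both genes the HDM wild type was the highest of the 4 and the HDM knockout the lowest, below the unchallenged lungs. The ratio of wild type to knockout was 5.43 for Hspa1a (4.92 to 6.02) and 5.16 for Hspa1b (4.66 to 5.70), and the differences of log2(FPKM + 1) were -2.27 and -2.20. Among the 13285 measured genes Hspa1a stood at rank 54 from the lowest difference and Hspa1b at rank 60. In its own library Hspa1a went from rank 2232 of 23284 genes in wild type to rank 8182 in the knockout.

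These genes are close copies, and their values are not independent. Of the 2918 windows of 50 bases in the Hspa1a transcript, 58.8% occur unchanged in Hspa1b, so reads can be split between them in a way the tables do not show, and how the authors' tools assigned them is not given in the sources used here. Hspa1a was at 99.1% of Hspa1b in the HDM wild type, 94.0% in the HDM knockout, 117% with PBS and 106% with IL-22. Added together they had 67.9, 12.8, 26.5 and 22.4 FPKM, and the HDM difference of the sum was -2.32. Counting the copies as 1 gene thus left a single member past the size rule.

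Hspa1l, the testis-enriched HSP70 whose start lies 547 bases from that of Hspa1a on the opposite strand, is no member but also differed. It was at 3.28 FPKM in the HDM wild type and 0.944 in the HDM knockout, a ratio of 3.47 (2.58 to 4.76), and at 2.15 and 1.94 with PBS and IL-22. Of its windows of 50 bases 9.57% also occur in Hspa1a, and the part of shared reads in its value was not tested.

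Among the partners of HSP70, Hsph1 was at 56.3 FPKM in the HDM wild type, 29.95 in the HDM knockout, 16.2 with PBS and 19.8 with IL-22. The ratio in the HDM pair was 1.88 (1.79 to 1.97) and the difference -0.89, just short of the size rule. Unlike Hspa1a and Hspa1b, Hsph1 was higher in each HDM library than in either unchallenged library. Dnajb1 was at 37.2, 19.96, 26.8 and 24.6 FPKM in the same order, with a ratio of 1.86 (1.75 to 1.99) and a difference of -0.87. For Dnajb1 the HDM knockout was the lowest of the 4, as for the inducible HSP70 genes, although the span was narrower.

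Hsp90aa1 differed least of all members in the HDM pair. It was at 309.5 FPKM without and 270.048 with the Il22 deletion, a ratio of 1.15 (1.13 to 1.17) and a difference of -0.20, and at 132 with PBS and 159 with IL-22. Of all measured genes 22.2% had a lower difference. With Hsp90aa1 taken as constitutive, the gap between the class medians went from -0.34 to -1.02, so the size of the gap between the classes rests on where this gene is placed.

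The constitutive members lay close together in the HDM pair, between -0.63 and -0.40. Hspa8, the most abundant member in every library, was at 1288 FPKM in the HDM wild type, 976 in the HDM knockout, 688 with PBS and 621 with IL-22, at ranks 50, 67, 92 and 98 from the top of the libraries. Its ratio in the HDM pair was 1.32 (1.31 to 1.33). Hspa5 was at 309, 199, 167 and 176 FPKM, with a ratio of 1.55 (1.52 to 1.59), the largest in this class. Both genes were higher in each HDM library than in either unchallenged library.

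The mitochondrial pair had like differences. Hspd1 was at 66.1 FPKM in the HDM wild type, 45.5 in the HDM knockout, 42.6 with PBS and 45.9 with IL-22. Hspe1 was at 163, 109.8, 102 and 101. The HDM knockout was thus near the unchallenged libraries for this pair, and the HDM wild type stood above the other 3. The ratios in the HDM pair were 1.45 (1.38 to 1.53) and 1.48 (1.39 to 1.58). Hspd1 was at 40.6%, 41.4%, 41.6% and 45.4% of Hspe1 across the 4 libraries. Reads from the bases where the genes overlap cannot be assigned to one of them without strand.

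**Figure D2:**
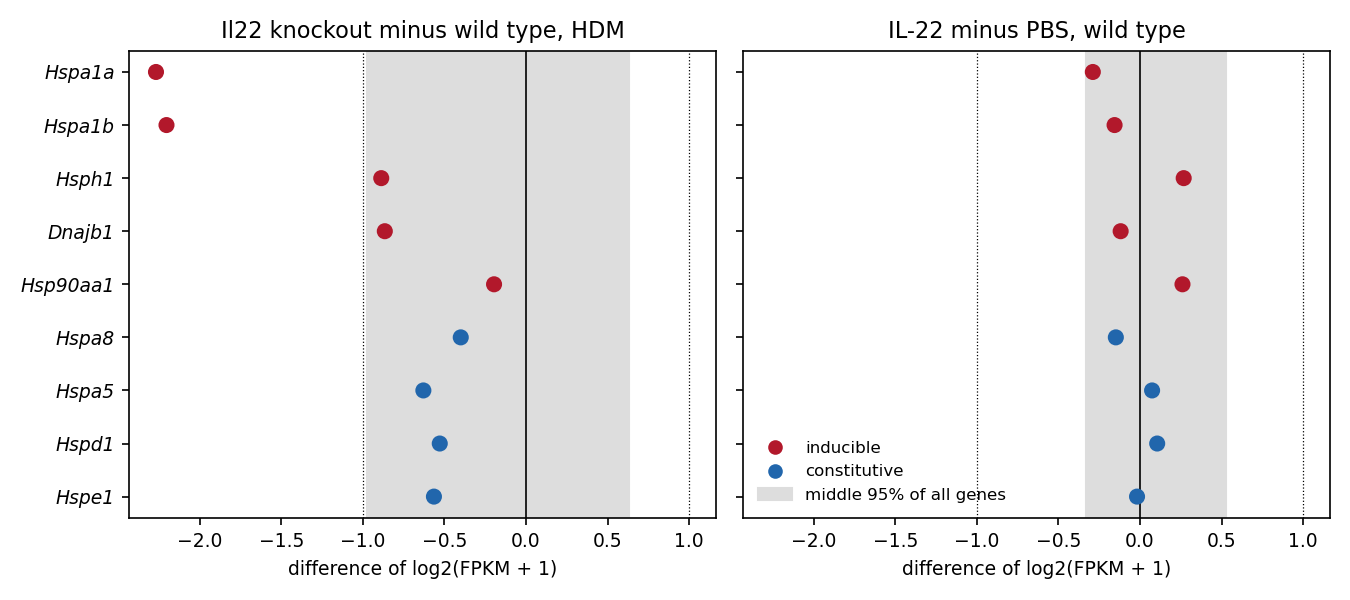
Difference of log2(FPKM + 1) (horizontal) for each member (vertical) in the HDM pair (left) and the PBS and IL-22 pair (right), coloured by class, with 1 library per group; dotted lines mark the size rule and the grey band the middle 95% of all measured genes. Hspa1a (-2.27) and Hspa1b (-2.20) lie outside the band of -0.98 to 0.63 on the left, and every member lies inside the band of -0.33 to 0.53 on the right.

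In the pair without allergen no member was called in either direction, nor differed by 1.5-fold, where 0.189% of 13233 measured genes were called lower with IL-22 and 0.597% higher, and 0.461% were lower and 1.96% higher by 1.5-fold. The differences of IL-22 minus PBS ran from -0.29 for Hspa1a to 0.27 for Hsph1, and 5 of the 9 lay below 0 (41.4% of all measured genes did), or 4 when the libraries were scaled to a common total. Hsph1 and Hsp90aa1 were higher with IL-22, at ratios of IL-22 to PBS of 1.22 (1.13 to 1.31) and 1.199 (1.17 to 1.23). Hspa1a was lower, at a ratio of 0.806 (0.732 to 0.887), and Hspa8 was at 0.902 (0.889 to 0.916). Hspe1, at 0.987 (0.916 to 1.07), did not differ beyond counting error. The intervals leave out the scaling between libraries. Scaled to a common total, the difference of Hspa8 went from -0.15 to -0.04 and that of Hspa1a from -0.29 to -0.19. Those of Hsph1 and Hsp90aa1 went from 0.27 to 0.37 and from 0.26 to 0.36. The departures of the members in this pair are small beside those of the HDM pair for the HSP70 genes. The comparisons differ in treatment, time and table, so the difference between them was not tested. The median difference was -0.12 over the inducible and 0.03 over the constitutive members, a gap of -0.15 that became 0.04 when Hspa1a and Hspa1b were counted as 1 gene. The sign of the constitutive median changed with the scaling.

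A ratio of genes in 1 library does not depend on how that library was scaled. Ratios of an inducible gene to its constitutive relative were therefore taken, chosen after the values had been seen. Hspa1a and Hspa1b together were at 5.27% of Hspa8 in the HDM wild type, 1.32% in the HDM knockout, 3.85% with PBS and 3.60% with IL-22. The HDM knockout was the lowest, 4.01 times below the HDM wild type. Hsph1 was at 134% of Hspa4, its constitutive HSP110 relative, in the HDM wild type, 79.0% in the HDM knockout, 50.3% with PBS and 59.3% with IL-22. Hsp90aa1 was at 48.7%, 52.2%, 23.1% and 27.9% of Hsp90ab1, the constitutive cytosolic HSP90. The ratios for HSP110 and HSP90 were thus higher in each HDM library than in the unchallenged libraries, and the HSP70 ratio was not. Hsph1 was at 82.9% of the summed Hspa1a and Hspa1b in the HDM wild type and 233% in the HDM knockout, beside 61.3% and 88.3% with PBS and IL-22.

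**Figure D3:**
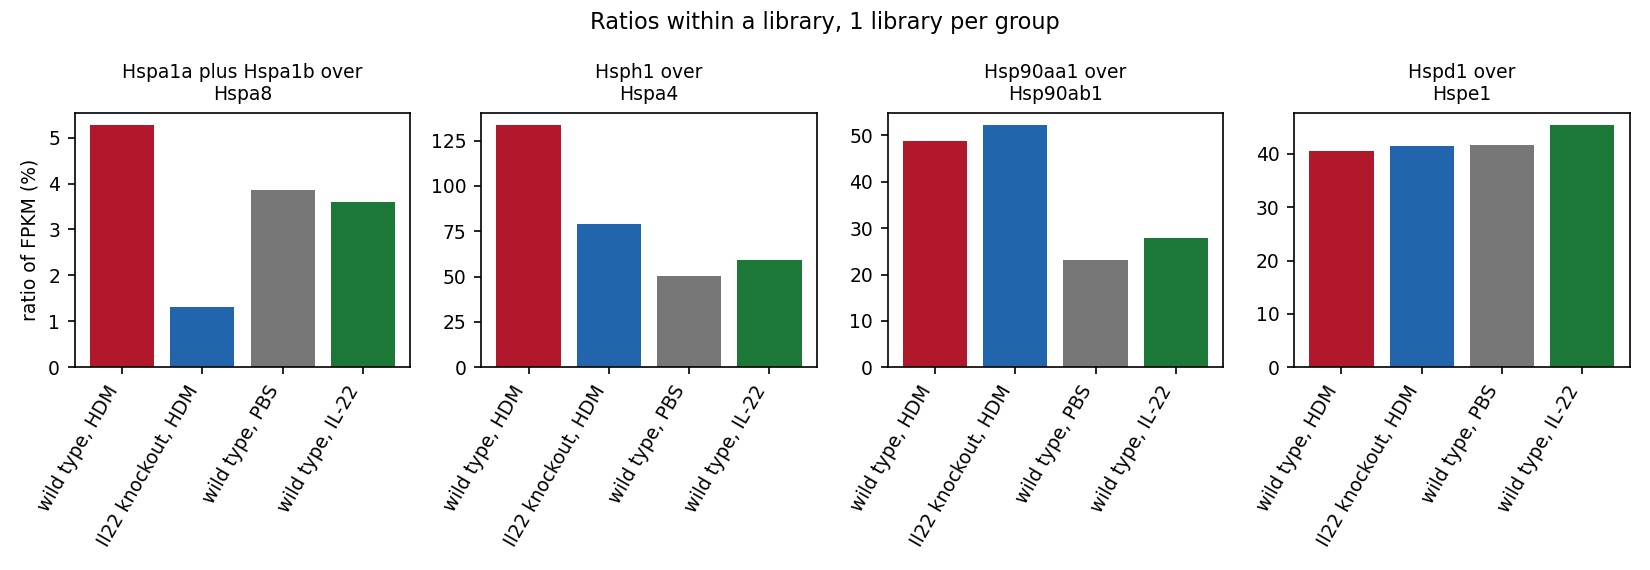
Ratio of FPKM within a library, in percent (vertical, from 0), for 4 gene pairs in the 4 libraries (horizontal), 1 bar per library. The HSP70 ratio is lowest in the HDM knockout (1.32%), the HSP90 ratio is higher in both HDM libraries (48.7% and 52.2%) than with PBS or IL-22 (23.1% and 27.9%), and Hspd1 over Hspe1 stays between 40.6% and 45.4%.

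Other chaperones and their regulators were read from 10 lists holding 102 genes, of which 99 were measured in each pair. In the HDM pair 2 of the 99 were called lower (Hspa1l and Sdf2l1) and none higher. Of all measured genes 2.42% were called lower there and 0.549% higher. Of the 99, 67 lay below 0, or 67.7% against 46.1% of all measured genes, and their median was -0.14. In the pair without allergen none of the 99 was called, and their median was 0.05. Of all measured genes 0.189% were called lower there and 0.597% higher. Since a gene can stand on several lists, the lists are not independent of each other.

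In the HDM pair 46.1% of all measured genes lay below 0. Of 20 further genes driven by HSF1, 15 lay below 0 there and 5 above, with a median of -0.27, and Hspa1l alone was called. Those above 0 included Hspb8 at 0.25, the highest of the list, Cryab at 0.20 and Hspa4l at 0.08. Dnaja1, Chordc1 and Bag3, given next, are among the lowest of the list. Dnaja1, an HSP40 that works with HSC70, was at 86.0 FPKM in the HDM wild type, 47.2 in the HDM knockout, 32.2 with PBS and 33.1 with IL-22. Chordc1, an HSP90 co-chaperone, was at 37.9, 22.7, 13.5 and 13.2 in the same order. For these genes, as for Hsph1, both HDM libraries were above the unchallenged ones. Bag3, which hands clients of HSP70 to autophagy, was at 37.3, 21.3, 43.0 and 39.1 FPKM, with the HDM knockout lowest. In the pair without allergen 12 of the 20 genes driven by HSF1 lay below 0, where 41.4% of all measured genes did. Their median there was -0.02, and its sign changed with the scaling. None of the heat shock factors passed the size rule in either pair. Hsf1, the main factor of the response, was at 14.0, 17.1, 15.4 and 17.5 FPKM, Hsf2 at 4.93, 4.77, 3.30 and 4.30, and Hsf4, known from the lens, at 3.76, 5.18, 8.54 and 6.52. Hsf4 had the lowest difference of the 99 chaperone genes in the pair without allergen, -0.34, and Hsf2 was at 0.30 there.

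Small heat shock proteins, which hold unfolded proteins without using ATP, lay mostly above 0. Of 7 measured in the HDM pair 5 lay above 0 and 2 below, none was called, and the median was 0.20. The 2 below are 28.6% of those measured, against 46.1% of all measured genes. Cryab, alpha-B-crystallin, was at 200.04 FPKM in the HDM wild type and 230.5 in the HDM knockout, and Hspb1, HSP27, at 128 and 142. In the pair without allergen Hspb7, Hspb2 and Hspb6, which muscle expresses strongly, had differences of 0.66, 0.50 and 0.48. Cryab, which muscle also expresses strongly, ran the other way at 293 FPKM with PBS and 256 with IL-22 (-0.19), and Hspb8 had a difference of -0.06. All 10 smooth muscle markers lay above 0 in that pair, with a median of 0.81 and a summed level of 601 FPKM with PBS and 1139 with IL-22, and 3 were called higher. All 10 heart muscle markers lay above 0 too, with a median of 0.48, 1 called higher (Nppa) and summed levels of 772 and 1132. Of 5 measured skeletal muscle markers 4 lay above 0, with a median of 0.53 and 1 called higher (Tnnt3). Fat cell markers had the highest median of the marker lists in that pair, 1.20, with all 6 measured above 0, 5 called higher and summed levels of 151 and 312. No muscle or fat marker with a measured difference was listed at 0 in that pair. All 10 smooth muscle markers and all 9 measured heart muscle markers lay below 0 in the HDM pair, with medians of -0.35 and -1.42. Hspb2, Hspb7 and Hspb6 had differences of 0.41, 0.22 and -0.33 there. The part of muscle and fat in the small heat shock protein values was not tested in either pair.

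Of 22 chaperones and regulators of the endoplasmic reticulum, 21 lay below 0 in the HDM pair, or all 22 when scaled by the median ratio, with a median of -0.32. Of all measured genes 46.1% lay below 0. Sdf2l1, a partner of BiP, was at 38.4 FPKM in the HDM wild type, 17.9 in the HDM knockout, 14.5 with PBS and 26.7 with IL-22, and was the only gene of the list to be called. Manf, a secreted stress-response factor, was at 81.8, 53.1, 62.8 and 57.2. The lectin chaperone Calr was at 405, 297, 366 and 474. Hspa5 lay below all genes of the list but Sdf2l1 in the HDM pair, at -0.63, with Manf next to it at -0.62. In the pair without allergen 15 of the 22 lay above 0 and 7 below, or 31.8% below against 41.4% of all measured genes. The median was 0.11, and Sdf2l1 had the highest difference, 0.84. Over all genes whose upstream window held the endoplasmic reticulum stress element, 17 measured in the HDM pair had a median of -0.29 and 15 in the other pair had 0.14, beside 0.02 and 0.04 over all genes with a window. For the heat shock element of 3 units the medians were 0.00 over 43 genes and 0.03 over 44. Hspa5 is itself among the genes with the stress element, and their overlap with the list above was not counted. These medians are therefore no separate result. The genes with 3 units included Hspd1 and Hspe1 but neither Hspa1a nor Hspa1b, whose windows held no match to that element.

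Chaperones of HSP90, the cytosolic chaperonin and the remaining classes had medians nearer to 0 in the HDM pair than the endoplasmic reticulum list. In the HDM pair 46.1% of all measured genes lay below 0. Of 14 HSP90 relatives and co-chaperones 11 did, with a median of -0.23. Stip1, which joins HSP70 to HSP90, was at 89.3 FPKM in the HDM wild type and 64.6 in the HDM knockout, and Fkbp5, an immunophilin also known as a glucocorticoid target, ran the other way at 21.2 and 28.4. Of 14 J-domain proteins 11 lay below 0 (median -0.16), and of 13 measured genes of the chaperonin TRiC and prefoldin 9 did (median -0.20). Mitochondrial chaperones and proteases had a median of -0.03, with the HSP70 of mitochondria, Hspa9, at 72.0 against 57.9 FPKM. The other genes of the HSP70 and HSP110 families were even, 5 below 0 and 5 above, with the endothelial Hspa12b highest at 14.6 FPKM in the HDM wild type against 22.4.

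**Figure D4:**
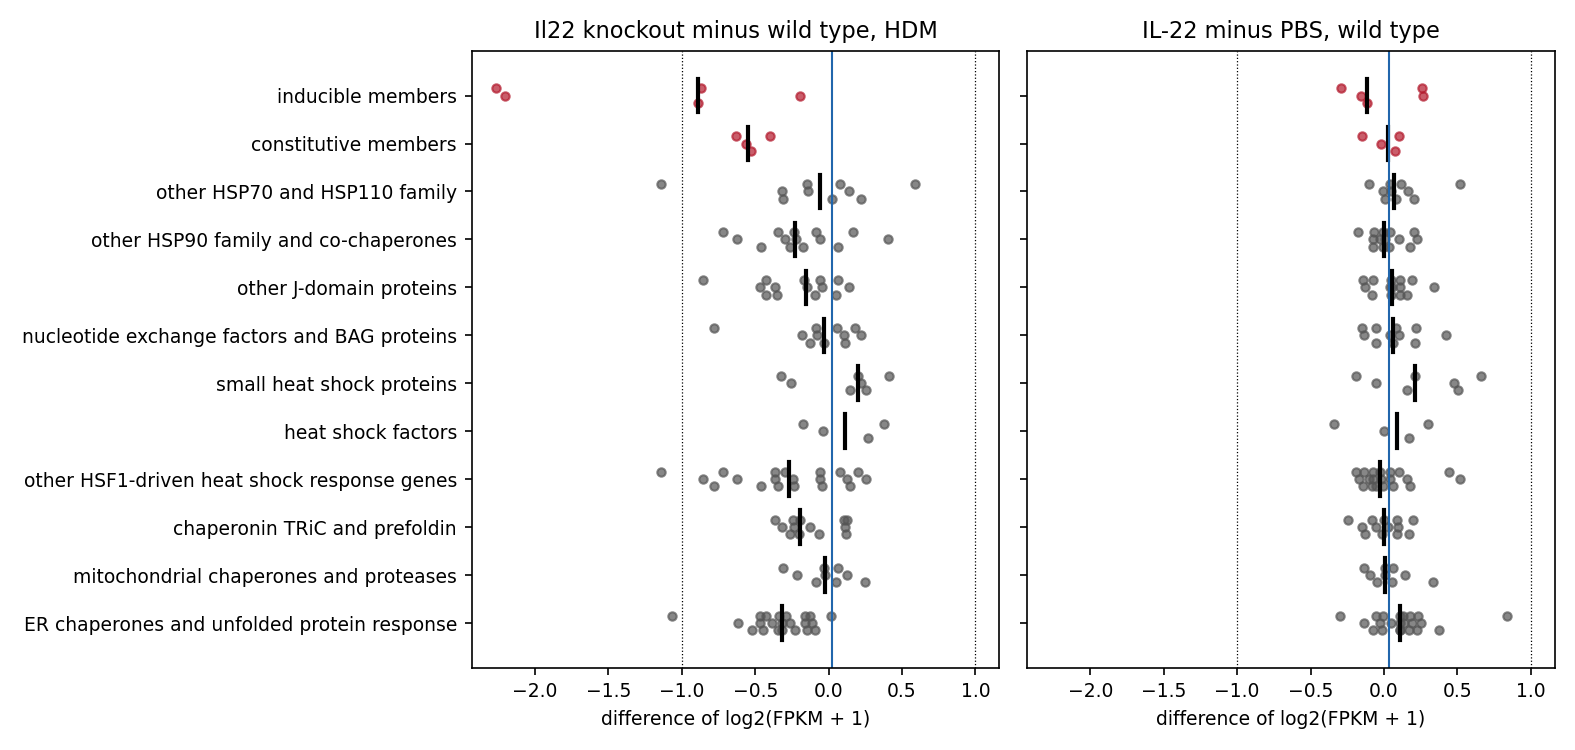
Difference of log2(FPKM + 1) (horizontal) of every measured gene in the member classes (red) and the other chaperone lists (grey), 1 point per gene, in the HDM pair (left) and the PBS and IL-22 pair (right); black bars are list medians, the blue line is the median of all measured genes and dotted lines mark the size rule. Endoplasmic reticulum chaperones have a median of -0.32 on the left and 0.11 on the right, and small heat shock proteins 0.20 and 0.21.

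Other genes also differed between the HDM libraries. Cell cycle genes, all 16 of which lay below 0, were called lower in 11, with a summed level of 167 FPKM in the HDM wild type against 86.8. Macrophage and monocyte markers were called lower in 7 of 12, with summed levels of 568 and 199.6. The 2 of them above 0 were Marco, at 3.07 against 4.43 FPKM, and Siglec5, at 4.06 against 4.35. Heart muscle markers were called lower in 8 of 9 measured (395 and 151), and fat cell markers in 3 of 5 measured (74.6 and 35.7). Erythroid genes were called higher in 4 of 7, with summed levels of 6053 and 12988. None of these markers with a measured difference was at 0 in either library, though the fat cell hormone Lep, under the filter, was listed at 0 in both, and their part in the chaperone values was not tested. Immediate early genes, which stress and tissue handling also raise, had a median of -0.09 with none of 12 called. Of these 8 lay below 0 and 4 above, from Egr2 at -0.73 to Ier3 at 0.62. The summed level of the list was 327 FPKM against 332, and whether handling differed was not tested. In the pair without allergen 12 of 13 immediate early genes lay below 0, with a median of -0.48, and Egr1 was called lower, at 26.1 FPKM with PBS and 10.6 with IL-22. Reference genes had medians of -0.16 and 0.05, with B2m, which interferon also raises, at 6535 against 2723 FPKM in the HDM pair.

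The genes nearest in pattern to the inducible members were taken as those with the smallest distance to the median point of the class over the 2 within-table differences, among 8548 other genes with a mean of at least 5 FPKM in both pairs. They were Mndal (distance 0.023), Ctsz (0.032), Ifi30 (0.035), H2-DMb1 (0.039) and H2-Eb1 (0.040). Their differences in the HDM pair lay between -0.90 and -0.85. The inducible members themselves ran from -2.27 for Hspa1a to -0.20 for Hsp90aa1 there. The median point, at -0.89 and -0.12, lies near Dnajb1 and far from Hspa1a and Hspa1b, so the named genes are not near those HSP70 genes. Ctsz encodes a lysosomal protease, Ifi30 a lysosomal thiol reductase, H2-DMb1 and H2-Eb1 chains of class II antigen presentation, and Mndal an interferon-inducible nuclear protein. With 2 values per gene, likeness here is a description of 4 libraries only.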

How the data were processed

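RNA of lungs of 4 groups was measured in 1 library each. The deposited values are FPKM per gene; the authors' processing used CASAVA 1.8.2, TopHat2 and Cufflinks 2.2.1 on mm10, per the submitters' processing notes, with settings and scaling between libraries not given in the sources used here. The tables (23746 rows each) were joined on symbol and accession, 25 symbols turned into dates were restored from RefSeq accessions, and rows of a symbol were added. Differences are of log2(FPKM + 1) within a table, which understates those of low genes, after leaving out genes whose mean FPKM was under 1; the size rule is 1. With 1 library per group no p-value was computed. Depth was the value at which low FPKM, times transcript length less 200 bases, lay nearest to whole reads; 64.2 to 67.1% of low values were then whole reads to a tolerance of 0.1, against 20% for evenly spread values. Members, lists and motifs were chosen with earlier results of these data known. Named genes were all members, up to 4 of each chaperone list and 2 of each marker list with the largest differences, and the 5 nearest in pattern; further list members are named as examples chosen after their values were seen. The size rule and the depth fit alone were tested on simulated data, which held counting error only. In each pair 91 of 100 genes lowered 3-fold and 100 of 100 lowered 6-fold were called. Spread between animals and reads shared by copies were not simulated. The list, motif, ratio and pattern steps were not tested. Alternatives were another pseudocount, 2 scalings, 2 filters, another size rule, adding the HSP70 copies and moving Hsp90aa1 to the other class. Figures were drawn with matplotlib 3.10.9, and values computed with scipy 1.17.1, pandas 2.3.3 and numpy 2.4.6 under Python 3.11.15.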

Additional observations from a re-analysis of the deposited data

How the results depend on the processing

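No paired analysis was possible because each group holds 1 library and the labels give no replicate numbers. At a size rule of 1.5-fold, 5 members were called in the HDM pair, all lower, where 6.41% of all measured genes were called lower. At that size 8 genes of the chaperone lists were called there, 7 lower and 1 higher (Hspa12b), and 2 in the pair without allergen, both higher (Sdf2l1 and Hspb7), where 1.96% of all measured genes were. With Hspa1a and Hspa1b added together 1 member was called in the HDM pair, and with Hsp90aa1 counted as constitutive the gap between the class medians there was -1.02. With a mean FPKM of at least 5, 1 gene of the chaperone lists was called in the HDM pair. Scaling to a common total moved the median of all genes by 0.09 in the pair without allergen, and by 0.01 in the HDM pair, where the 9 members lay below 0 under each scaling and pseudocount tried. Over all measured genes, 322 lower and 73 higher calls in the HDM pair became 488 and 131 with a pseudocount of 0.1, 193 and 58 with a mean FPKM of at least 5, and 852 and 429 at 1.5-fold. In the other pair 25 and 79 became 34 and 132, 21 and 53, and 61 and 259 under the same settings. The gap of -0.15 between the class medians of that pair turned to 0.04 with the HSP70 copies added, and the difference of Hspe1 there went from -0.02 to 0.09 when scaled to a common total. Without replicates, the depth bounds counting error only.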
